A study of Homo sapiens with 18 samples.

Results

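The cytosolic ribosomal proteins are encoded by 76 of the 45372 gene symbols in the expression table. Members were taken by name (RPL, RPS, RPLP0 to RPLP2 and RPSA with the usual number and an A or X ending) and by an average TPM, over all 18 libraries, of 1 or more, and every row that matched by name passed this level. There were 45 genes of the large subunit and 31 of the small subunit. RPL6 was not analysed here. The libraries came from MV4-11, an AML cell line with a *KMT2A*-*AFF1* fusion and a FLT3 internal tandem duplication, and from THP1 (THP-1 in the labels), an AML cell line that also carries a *KMT2A* rearrangement. Each cell line was given DMSO, the vehicle, or 50 nM IACS-010759 (IACS), an inhibitor of mitochondrial complex I, for 8 h or 24 h, with 3 libraries in each of the 6 groups. Both timepoints of a cell line were compared with the same 3 DMSO libraries, and the sources used here do not say for how long those cells were treated. Each cell line is a single line, so a difference between the cell lines is between these 2 lines only.

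A ribosome is built from a large subunit, which joins amino acids, and a small subunit, which reads the mRNA. The ribosomal proteins are needed in roughly equal numbers, and the mRNAs of nearly all of them start with a run of pyrimidines, the 5′ terminal oligopyrimidine (TOP) tract, through which mTOR and LARP1 control their translation. Many of these genes host small nucleolar RNAs (snoRNAs) in their introns, and most have processed pseudogenes with a near-identical sequence. The measurements are of RNA, and they say nothing of protein level or translation.

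The TOP tract was looked for in the RefSeq promoter windows (GRCh38.p14), which span 250 bases before a transcription start and 50 bases from it. Windows were found for 61 of the 76 members, 75 windows in all. A C at the start itself followed by at least 4 more C or T was present in 61.3% of the members' windows and in 4.07% of all 35116 windows. Within 10 bases of the start on either side these shares were 85.3% and 33.5%. Below are 15 bases before the start and 15 from it for the members on which the results turn, 5′ to 3′ on the strand of the gene. In capitals is a run of C or T that opens with a C at or after the start, and pyrimidines directly before that C are not marked. The first 3 are the genes with the lowest log2 fold changes in THP1 after 24 h of IACS. The next 3 have the lowest log2 fold changes of THP1 against MV4-11 with DMSO, and *RPS10* has the highest. *RPL38* is the member furthest above its group in MV4-11 IACS 24 h replicate 3.
RPS16 (chr19:39435935-39435964, minus strand): gtggcccctagctttCCTTTTCCggttgcg
RPLP1 (chr15:69452803-69452832, plus strand): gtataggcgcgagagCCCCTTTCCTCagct
RPS26 (chr12:56041903-56041932, plus strand): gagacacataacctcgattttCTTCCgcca
RPL26 (chr17:8383179-8383208, minus strand): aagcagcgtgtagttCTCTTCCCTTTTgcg
RPL13A (chr19:49487593-49487622, plus strand): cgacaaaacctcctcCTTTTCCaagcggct
RPS19 (chr19:41860240-41860269, plus strand): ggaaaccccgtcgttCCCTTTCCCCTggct
RPL38 (chr17:74203663-74203692, plus strand): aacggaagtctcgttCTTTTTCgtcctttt
RPS10 (chr6:34426055-34426084, minus strand): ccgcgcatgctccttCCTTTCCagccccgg
In 7 of these 8 windows the marked run begins at the annotated start and is between 7 and 12 bases long. In the *RPS26* window the marked run begins at base 7 and is 5 bases long. The T bases directly before it lengthen the unbroken run of pyrimidines there. A match of letters does not show which base a transcript starts with in these cells.

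Other motifs were counted in the whole window on both strands. The ETS-type motif CCGGAAG was in 34.7% of the members' windows and 10.3% of all windows. GATGGCG, a YY1-type motif, was in 22.7% and 4.20%, and TCTCGCGA was in 17.3% and 1.15%. The SP1-type motif GGGCGG was in 56.0% and 45.0%, TATAAA in 6.67% and 11.5%, and the E-box CACGTG, the kind of site that MYC binds, in 5.33% and 7.26%. These are counts of letters and not measurements of binding.

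The genes were highly expressed in both cell lines. Of the 76, 75 were among the 1000 symbols with the highest mean TPM, and their mean TPM ran from 51.2 (*RPS29*) to 2177 (*RPL13A*), a 42.5-fold range with a median of 458. *RPL13A*, *RPL41*, *RPS12* and *RPS2* were among the highest. The 5 lowest were *RPS29*, *RPL14*, *RPL28*, *RPS15A* and *RPL34*. The median was 448 TPM for the large subunit and 465 TPM for the small subunit. TPM divide by gene length, and across the members the log2 level fell with the log2 exon length of the annotation (Pearson r = -0.655 over 76 genes, which share libraries). *RPS12* has 639 exonic bases and *RPS29* has 9840 over all annotated transcripts, so the order of the genes cannot be told apart from the lengths used. snoRNAs lie within 28 of the genes, 59 snoRNAs in all.

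**Figure D1:**
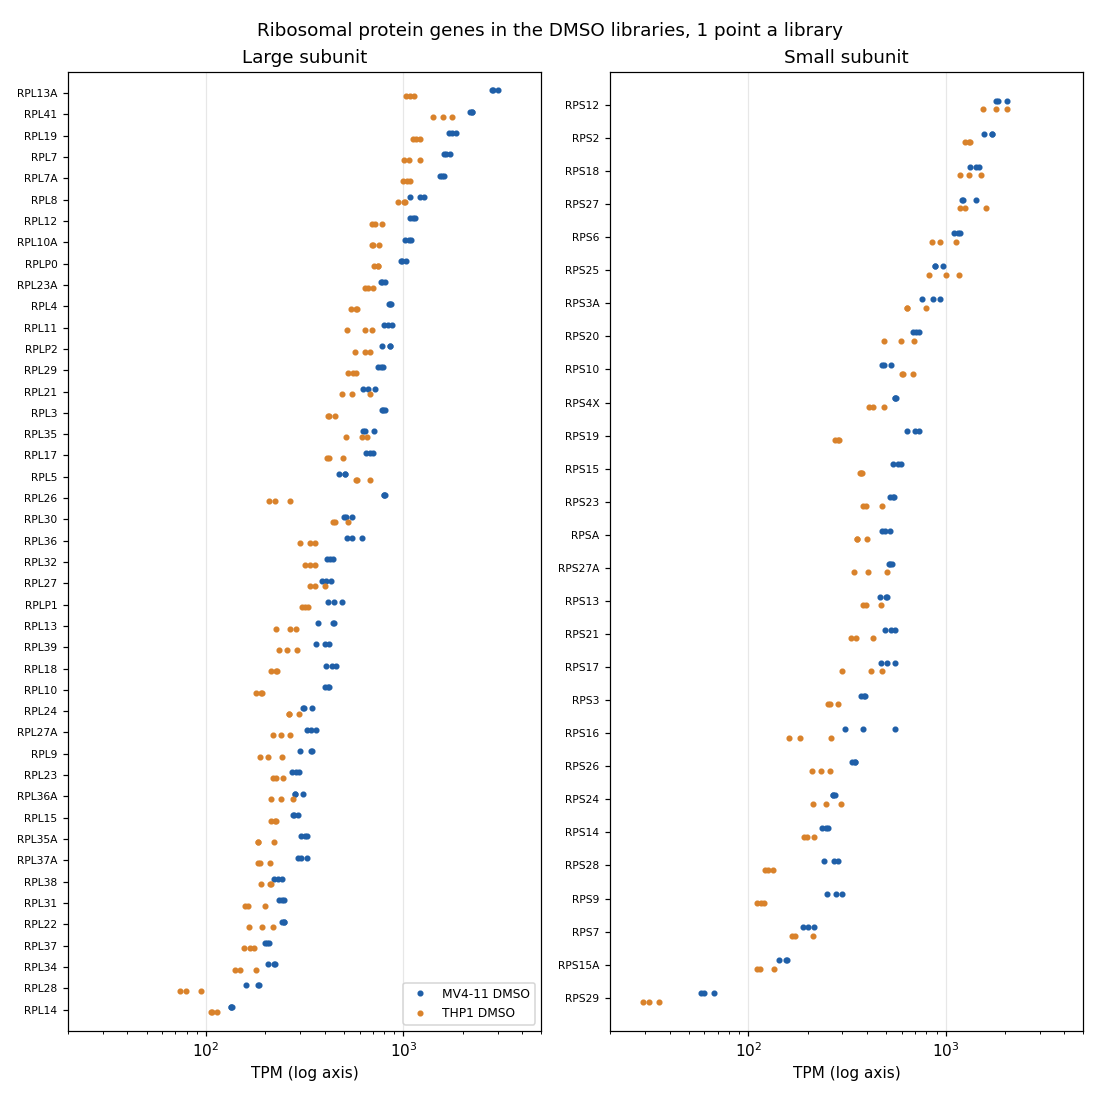
TPM (log axis) of 72 of the 76 ribosomal protein genes in the 3 DMSO libraries of MV4-11 (blue) and of THP1 (orange), ordered by the mean over all 18 libraries within each subunit. The THP1 points lie to the left of the MV4-11 points for 55 of the 72 genes drawn, and to the right for *RPL5* and *RPS10*. Over all genes tested these shares were 30.9% and 29.8%.

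MV4-11 gave a larger part of its TPM to these genes than THP1 did. The summed share was 5.29% ± 0.167 (SD, n = 3) with DMSO in MV4-11 and 3.84% ± 0.310 (SD, n = 3) in THP1. Over all 9 libraries of a cell line it was 5.14% to 6.77% in MV4-11 and 3.38% to 4.19% in THP1, so that the cell lines did not overlap. In these bulk samples, fewer cells of a kind and less RNA per cell cannot be told apart. Abundant noncoding RNAs of the signal recognition particle and others (*RN7SL1*, *RN7SL2*, *RN7SK*, *RMRP* and *RPPH1*) took 39.6% to 51.9% of the TPM in MV4-11 and 46.3% to 60.1% in THP1, and they move every other share. Without those 5 the members held 9.88% to 11.5% in MV4-11 and 7.41% to 9.44% in THP1, again with no overlap.

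The balance of the subunits differed between the cell lines as well. The summed TPM of the large subunit divided by that of the small subunit was 1.42 to 1.57 in the 9 MV4-11 libraries and 1.15 to 1.26 in the 9 THP1 libraries. The ratio does not depend on the noncoding RNAs, since both sums come from the same library. With DMSO it was 1.43 ± 0.0162 (SD, n = 3) in MV4-11 and 1.21 ± 0.0570 (SD, n = 3) in THP1. After 24 h of IACS it was 1.48 ± 0.0758 (SD, n = 3) and 1.20 ± 0.0286 (SD, n = 3). Within a cell line the groups overlapped at both timepoints.

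**Figure D2:**
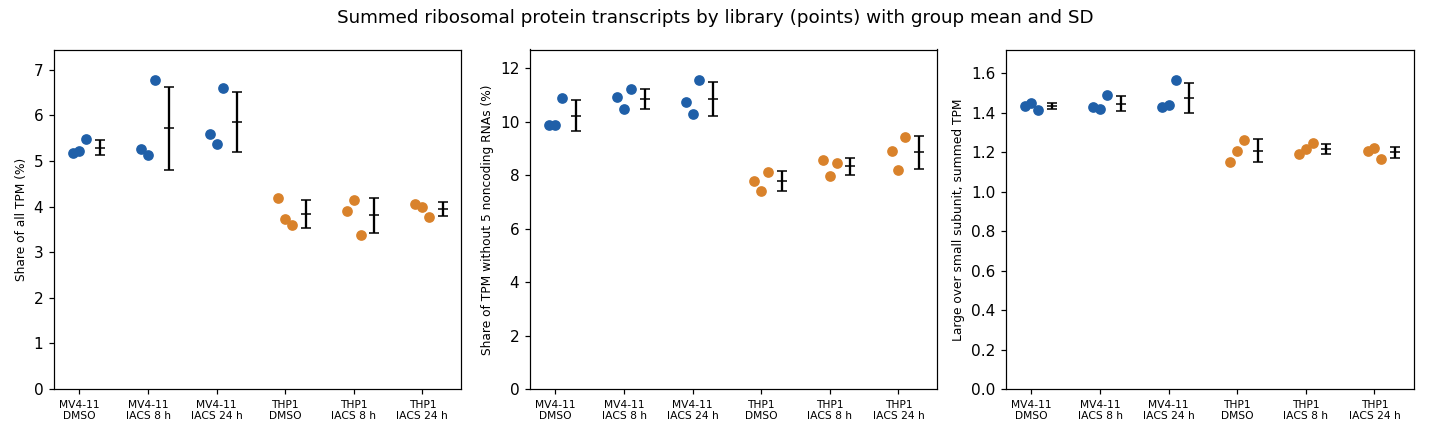
Summed TPM of the 76 genes in each library (points) as a percent of all TPM, as a percent of the TPM without the 5 noncoding RNAs, and as the ratio of the large to the small subunit, with the group mean and SD in black. MV4-11 (blue) lies above THP1 (orange) in all 3 panels, and replicate 3 of both IACS groups of MV4-11 lies highest in the first panel, at 6.77% and 6.60%.

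Some facts of the whole table bear on these values. Libraries held an estimated 21.7 to 28.5 (median 24.0) reads or read pairs in units of 1e6, from steps of whole reads in the low values, where 78.5% to 81.1% of values lay within 0.02 of a whole read. Mitochondrially encoded genes took 1.08% to 2.77% of the TPM. Myeloid markers fixed for the check were present, 8 of 9 in MV4-11 and 7 of 9 in THP1 at 1 TPM or more (*CD33*, *SPI1*, *LYZ*, *CSF1R* and *HOXA9* in both). The summed T cell, erythroid and fibroblast markers were under 1 TPM in every library. *CD79A* and *KRT18* had a mean of 1 TPM or more in MV4-11 alone. The 3 B cell markers summed to 1.33 to 2.58 TPM in MV4-11 and 0.737 to 1.46 TPM in THP1, and the 3 epithelial markers to 2.76 to 4.23 TPM and 0.0898 to 0.562 TPM. Their part in the results was not tested. The 2 libraries MV4-11 IACS 8 h replicate 3 and MV4-11 IACS 24 h replicate 3 stood apart in these genes, with the lowest noncoding shares of all (39.6% and 42.9%). The members' median lay 0.40 and 0.27 (log2) above the mean of replicates 1 and 2 of the same group, against 0.29 and -0.02 for all genes that average 1 TPM or more.

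The first comparison asks whether complex I inhibition changed these mRNAs within each cell line. By limma on log2(TPM + 1), over all genes that average 1 TPM or more, 0 of the 76 members were called in either cell line at either timepoint. A call here means a change of more than 1.5-fold with a p under 0.05 after adjustment by Benjamini and Hochberg. Few genes of any kind were called. The share of all genes tested was 0.0148% in MV4-11 at 8 h, 0.0886% in MV4-11 at 24 h, 0.0144% in THP1 at 8 h and 0.0431% in THP1 at 24 h, so an absence of calls among the members is near the background. At an unadjusted p under 0.05, 0 members passed in the first 3 of these comparisons and 4 in THP1 at 24 h (1 higher, 3 lower), beside 4.39%, 12.0%, 2.11% and 8.61% of all genes. Kruskal-Wallis tests followed by Dunn's test with the same fold threshold, the kind of test the study used, called 0 members in all 4, beside 0.0665%, 0.406%, 0.0431% and 0.165% of all genes.

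The direction in MV4-11 rested on replicate 3 at 8 h, and fewer members shared it without replicate 3 at 24 h. After 8 h of IACS, 70 of 76 members had a log2 fold change above 0, with a median of 0.10 (all genes 0.06). Without MV4-11 IACS 8 h replicate 3 it was 23 of 76, with a median of -0.02 (all genes -0.04). After 24 h, 73 of 76 lay above 0 with a median of 0.14 (all genes 0.08), and without MV4-11 IACS 24 h replicate 3 it was 59 with a median of 0.05 (all genes 0.10). All 3 IACS libraries lay above all 3 DMSO libraries at 24 h for 20 members, beside 19.4% of all genes. The large subunit had a median of 0.16 and the small subunit 0.10 at 24 h, and both were 0.05 without that library.

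In THP1 the members stayed close to 0 while the middle of all genes lay lower. At 8 h the median was -0.01 (35 of 76 above 0) and at 24 h 0.03 (47 of 76 above 0), against -0.12 and -0.12 for all genes tested. At 8 h 70 members, and at 24 h 68, exceeded that middle. Scaling by the median of ratios in place of TPM moved the median of all genes to 0.01 and 0.02 and that of the members to 0.14 and 0.18, so whether the members lie at 0 or above it depends on the scaling, while their distance from the other genes changed little. Leaving out THP1 DMSO replicate 3 gave a median of -0.02 at 24 h with 31 members above 0, beside -0.22 for all genes, and leaving out THP1 DMSO replicate 1 gave 0.10 with 60 above 0, beside -0.04. At 8 h the count above 0 was 15 without THP1 IACS 8 h replicate 2 (median -0.07), 59 without THP1 DMSO replicate 1 (0.05) and 65 without THP1 IACS 8 h replicate 3 (0.06), beside -0.23, -0.05 and -0.03 for all genes. The subunits had medians of 0.02 (large) and 0.03 (small) at 24 h.

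**Figure D3:**
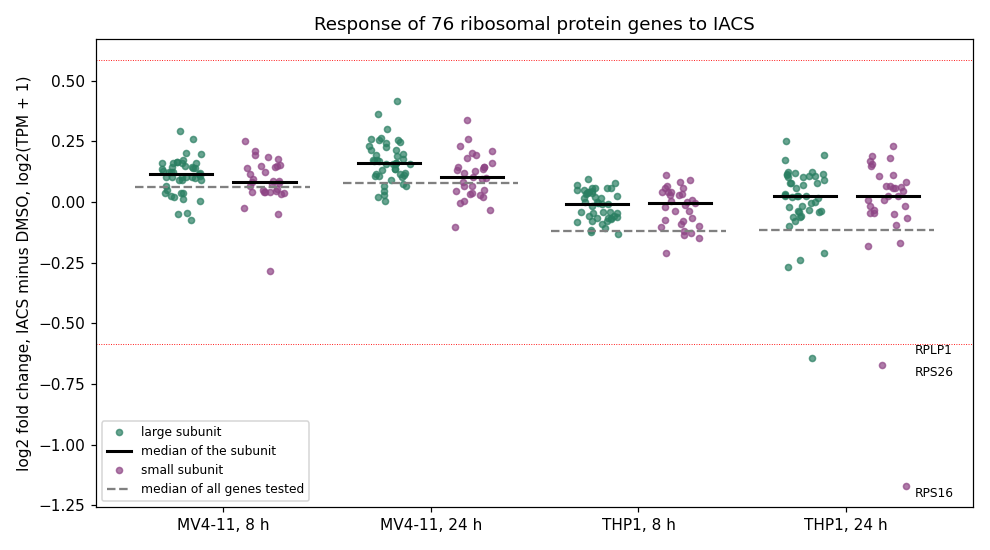
log2 fold change of IACS against DMSO on the log2(TPM + 1) scale for each of the 76 genes, by subunit, with subunit medians (black), the median of all genes tested (dashed grey) and the 1.5-fold threshold (dotted red). Most points lie between -0.3 and 0.5. *RPS16*, *RPS26* and *RPLP1* are the only members beyond the dotted lines, in THP1 at 24 h, and none was called without the replicate block.

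*RPS16*, *RPS26* and *RPLP1* departed from the rest in THP1 at 24 h. RPS16 is a protein of the head of the small subunit, RPS26 sits at the mRNA exit, and RPLP1 is one of the acidic stalk proteins that recruit elongation factors. *RPS16* (chr19:39433137-39435949 in GRCh38, minus strand) was 182, 161 and 263 TPM in the THP1 DMSO libraries, 184, 191 and 187 TPM after 8 h and 70.2, 145 and 64.9 TPM after 24 h. All 3 libraries at 24 h lay below all 3 DMSO libraries, with replicate 2 the nearest to them. The log2 fold change came to -1.17 (SE 0.27, adjusted p = 0.269 by limma).

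*RPS26* (chr12:56041351-56044697, plus strand) was 261, 234 and 211 TPM with DMSO, 207, 242 and 165 TPM after 8 h and 153, 169 and 122 TPM after 24 h in THP1. The groups at 24 h did not overlap, and the log2 fold change was -0.67 (SE 0.17, limma adjusted p = 0.358). *RPLP1* (chr15:69452814-69456205, plus strand) was 329, 306 and 316 TPM with DMSO, 333, 318 and 263 TPM after 8 h and 185, 292 and 154 TPM after 24 h. Here too replicate 2 at 24 h was the library nearest to the controls, and the log2 fold change was -0.64 (SE 0.20, limma adjusted p = 0.454).

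The replicate numbers were taken to pair the THP1 DMSO and 24 h libraries, with correlations of the deviations of 0.15, 0.16 and 0.32. The labels do not say that libraries of the same number were made together. The block also covered the THP1 8 h libraries, whose correlations with DMSO (0.04, 0.14 and 0.48) did not all pass 0.1. With the number as a block, all 3 genes were called lower, with limma adjusted p of 0.0127 for *RPS16*, 0.00301 for *RPS26* and 0.0191 for *RPLP1*, beside 1.73% of all genes called lower. With the block and median-of-ratios scaling together 1 member, *RPS16*, was called lower (log2 fold change -1.02, limma adjusted p = 0.0487), beside 0.628% of all genes. Under those same settings at an adjusted p alone, 13 members were higher, beside 7.92% of all genes, and 2 were lower, beside 7.09%. Without THP1 IACS 24 h replicate 2, *RPS16* had a log2 fold change of -1.54 and was called (limma adjusted p = 0.00969), and it was the only member called.

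*RPS16*, *RPS26*, *RPLP1*, *RPL38* and *RPS15* were the 5 members with all 24 h libraries below all DMSO libraries, beside 10.2% of all genes. *RPL15*, *RPLP0*, *RPL4*, *RPS19* and *RPL13A* were the 5 with all above, beside 3.32%. *RPL13A* had the highest log2 fold change of the members there, 0.25 (SE 0.10, limma adjusted p = 0.542), with 1323, 1266 and 1270 TPM against 1077, 1033 and 1130 TPM.

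These same genes were also among the most variable within groups. The pooled SD of log2(TPM + 1) within groups was 0.58 for *RPS16*, 0.43 for *RPL38*, 0.31 for *RPLP1*, 0.29 for *RPL23*, 0.27 for *RPS2* and 0.26 for *RPS26*, ranks 1 to 6 of the 76. The median over the members was 0.16, and it was 0.20 for 1635 other genes that average 50 TPM or more. In MV4-11 *RPS16* was 380, 556 and 308 TPM with DMSO, 157, 318 and 723 TPM after 8 h, and 401, 564 and 381 TPM after 24 h. The 8 h libraries alone ran from 157 to 723 TPM. Whether reads of near-identical pseudogene copies enter these values was not tested. *RPS10*, *RPL17* and *RPL36A* also share exons with readthrough genes in the table, which makes their own values uncertain.

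*RPL38*, a small protein of the large subunit, and *RPL23*, on the face that meets the small subunit, showed the replicate 3 pattern of MV4-11 most clearly. *RPL38* was 242, 221 and 233 TPM with DMSO, 212, 214 and 503 TPM after 8 h and 232, 233 and 548 TPM after 24 h. *RPL23* was 297, 272 and 287 TPM, then 289, 279 and 497 TPM, then 303, 297 and 552 TPM. Their log2 fold changes at 24 h were 0.42 (SE 0.35) and 0.36 (SE 0.26), the highest of the members, and 0.01 and 0.07 without MV4-11 IACS 24 h replicate 3.

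**Figure D4:**
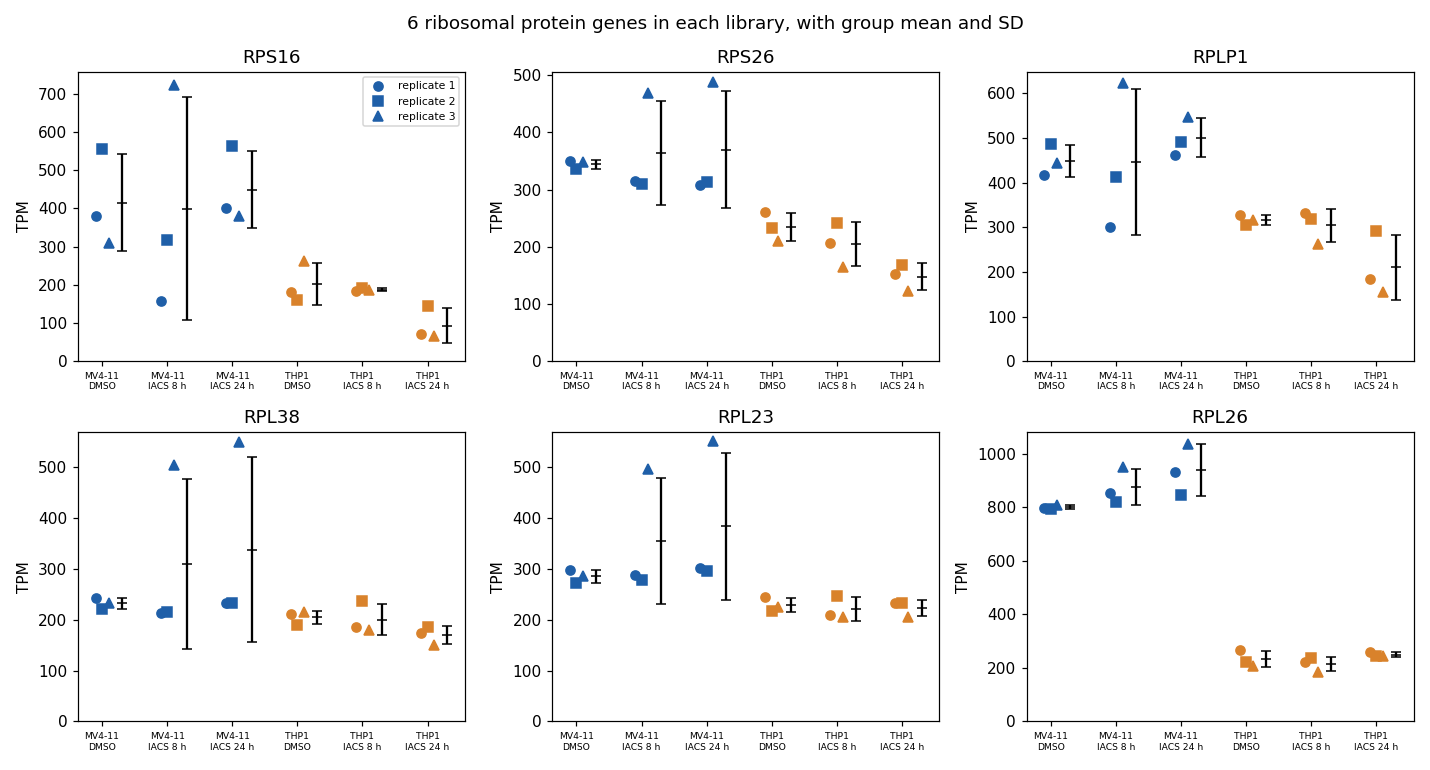
TPM of 6 ribosomal protein genes in each library, with the replicate number as the marker shape and the group mean and SD in black. In THP1 (orange) at 24 h *RPS16*, *RPS26* and *RPLP1* lie below their DMSO libraries, in MV4-11 (blue) replicate 3 of both IACS groups lies far above replicates 1 and 2 for *RPL38* and *RPL23*, and *RPL26* separates the cell lines in every group.

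Apart from *RPLP1* of the stalk and *RPS26* at the mRNA exit, described above, the members named for their role lay within 0.20 of 0 at 24 h. Of the other stalk proteins, *RPLP0*, the base of the stalk, had log2 fold changes of 0.20 in MV4-11 and 0.12 in THP1, and *RPLP2*, the partner of RPLP1, had 0.07 and -0.10. *RPL5* and *RPL11*, which carry the 5S rRNA into the large subunit and bind MDM2 when ribosome assembly fails, had 0.11 and 0.11 in MV4-11 and 0.06 and 0.03 in THP1. *RPS6*, the substrate of the S6 kinases, had 0.04 in MV4-11 (1222, 1150 and 1179 TPM against 1153, 1104 and 1186 TPM) and 0.19 in THP1 (1090, 1076 and 1147 TPM against 1124, 936 and 859 TPM). *RPSA*, also at the mRNA exit, had 0.19 and 0.06, *RPS27A*, made as a fusion with ubiquitin, had -0.03 and -0.10, and *RPL41*, the smallest ribosomal protein, had 0.07 and 0.08. None of these 8 passed the limma test, with adjusted p between 0.655 and 0.960 among these values. Without MV4-11 IACS 24 h replicate 3 the MV4-11 values of *RPLP0* and *RPSA* were 0.00 and 0.01, and that of *RPL5* was 0.01. The 95% intervals of *RPS6* at 24 h were -0.22 to 0.31 in MV4-11 and -0.08 to 0.46 in THP1, short of 1.5-fold in either direction. Of the 19 members mutated in Diamond-Blackfan anemia, a red cell aplasia of ribosomal protein loss, 18 lay above 0 in MV4-11 and 15 in THP1 at 24 h, and 0 were called. Without that library it was 13 in MV4-11.

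From 8 h to 24 h of IACS, 0 members were called in MV4-11, beside 0% of all genes, and 0 in THP1, beside 0.00718%. At an unadjusted p under 0.05 there were 0 in MV4-11 (2.30% of all genes) and 3 in THP1 (4.99%), *RPS16*, *RPLP1* and *RPS26*, all lower at 24 h with log2 fold changes of -1.09, -0.58 and -0.46 in limma. By Kruskal-Wallis and Dunn's tests 0 members were called in both, beside 0.0222% and 0.136%. The replicate numbers were taken to pair the libraries in both of these comparisons. With the block *RPS16* was called lower in THP1 (limma adjusted p = 0.0354), beside 0.373% of all genes, and no member in MV4-11, beside 0.00738%. With median-of-ratios scaling its adjusted p was 0.0478 with the block and 0.0781 without it. Without replicate 3 of both MV4-11 IACS groups 0 members were called in MV4-11, and 9 passed at an unadjusted p, beside 21.8% of all genes. The IACS libraries at 24 h enter this comparison and the one with DMSO alike.

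The responses of the cell lines were then set against each other as an interaction in 1 limma fit of 18 libraries. At 8 h and at 24 h 0 members were called, beside 0.00708% and 0.00708% of all genes. At an unadjusted p under 0.05 there were 0 members at 8 h (3.16% of all genes) and 3 at 24 h (7.10%). These 3 were *RPS16* (-1.30, SE 0.56, limma adjusted p = 0.687), *RPLP1* (-0.80, SE 0.31, adjusted p = 0.681) and *RPS26* (-0.74, SE 0.28, adjusted p = 0.666), all lower in THP1. Without replicate 3 of the MV4-11 IACS group, 0 members passed at an unadjusted p at 8 h (1.62% of all genes) and 2 at 24 h (7.38%), *RPS16* and *RPLP1*, and 0 were called.

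The members were also split by TOP tract and by snoRNA. The 46 whose window held a tract at the start had a median log2 fold change of 0.12 in MV4-11 and 0.03 in THP1 at 24 h, and the 15 with a window and no tract there had 0.16 and 0.03. The 28 snoRNA hosts had 0.17 and 0.06, and the other 48 had 0.14 and 0.02. Without MV4-11 IACS 24 h replicate 3 the MV4-11 medians were 0.05 with a tract, 0.07 with none, 0.06 for hosts and 0.04 for the others.

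More members were called between the cell lines than with IACS. In the DMSO libraries, 27 members were called lower in THP1 than in MV4-11 by limma, beside 17.2% of all genes, and 0 were called higher, beside 19.7%. At an adjusted p alone, 46 were lower, beside 24.0%, and 0 were higher, beside 26.0%. Of the 76, 71 lay below 0, with a median of -0.45 (all genes 0.01) and -0.44 with median-of-ratios scaling. All 3 THP1 libraries lay below all 3 MV4-11 libraries for 58 members, beside 30.9% of all genes. The large subunit had a median of -0.49 and 19 of its 45 members called, and the small subunit -0.35 and 8 of 31.

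The libraries given IACS, which share none with the DMSO groups, gave the same direction. These comparisons and the one with DMSO came from the same fit of 18 libraries. They share each gene's estimate of the spread, so their calls are not independent. After 8 h of IACS 34 members were called lower in THP1, beside 25.0% of all genes, and after 24 h 38, beside 27.2%. Of the 27 called with DMSO, 26 were called again at 8 h, which is 96.3% of the DMSO list and 76.5% of the 8 h list, and 27 at 24 h, 100% and 71.1%. The median of all genes was -0.18 and -0.20 in those 2 comparisons, and that of the members -0.56 and -0.61. Without replicate 3 of the MV4-11 group 24 members were called lower at 8 h, beside 19.9% of all genes, and 29 at 24 h, beside 26.8%, with 22 and 23 of the 27 among them and member medians of -0.45 and -0.48.

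Among the members with the lowest log2 fold changes of THP1 against MV4-11 with DMSO were *RPL26*, *RPL13A*, *RPS19*, *RPS9*, *RPL10*, *RPL28*, *RPS28* and *RPS16*, from -1.78 to -1.02. *RPL26* (chr17:8377516-8383213, minus strand) encodes a protein at the exit tunnel. It was 799, 794 and 810 TPM in MV4-11 and 267, 223 and 209 TPM in THP1 with DMSO, and 934, 846 and 1039 TPM against 260, 244 and 244 TPM after 24 h of IACS. No THP1 library came near an MV4-11 library. Its log2 fold change was -1.78 (SE 0.12, limma adjusted p = 5.65e-10) with DMSO, -2.03 after 8 h and -1.91 after 24 h.

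*RPL13A* (chr19:49487510-49493057, plus strand), the host of *SNORD32A*, *SNORD33*, *SNORD34* and *SNORD35A*, encodes a large subunit protein known also for its part in the GAIT complex. It was 2808, 2858 and 3030 TPM in MV4-11 and 1077, 1033 and 1130 TPM in THP1, which is -1.42 on the log2 scale (SE 0.12, adjusted p = 9.05e-09 by limma). *RPS19* (chr19:41860255-41872925, plus strand), the gene most often mutated in Diamond-Blackfan anemia, was 637, 698 and 737 TPM against 287, 286 and 275 TPM (-1.28, SE 0.13, limma adjusted p = 1.77e-07). *RPL10*, an X-linked gene whose protein lies near the catalytic centre, was 399, 418 and 415 TPM against 193, 191 and 180 TPM (-1.12, SE 0.11). In all of these the groups were well apart.

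The call for *RPS16* was the weakest of these, at -1.02 (SE 0.40, limma adjusted p = 0.0395). It was lost when any 1 of MV4-11 DMSO replicates 1 and 2 and THP1 DMSO replicates 1 and 2 was left out, with adjusted p of 0.0666 to 0.158. After 8 h of IACS *RPS16* was -0.82 and not called (adjusted p = 0.0907), and after 24 h it was -2.33.

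Few members lay on the other side. *RPS10* (chr6:34417454-34426069, minus strand) was 479, 490 and 529 TPM in MV4-11 and 685, 601 and 609 TPM in THP1 (0.34, SE 0.15, limma adjusted p = 0.0686), and *RPL5* was 504, 472 and 507 TPM against 674, 579 and 578 TPM (0.30, SE 0.14, adjusted p = 0.0852). These were the 2 members with all THP1 libraries above all MV4-11 libraries, beside 29.8% of all genes, and neither was called. *RPS25* and *RPS27* were at 0.12 and 0.06. By role, all 9 members at the tunnel wall and exit rim lay below 0, 5 of them called lower. Of all 76 members, 71 lay below 0 and 27 were called lower. The 5S partners split, *RPL5* at 0.30 and *RPL11* at -0.45. Of the stalk genes *RPLP0*, *RPLP1* and *RPLP2* were at -0.44, -0.50 and -0.40, and *RPSA*, *RPS27A*, *RPL41* and *RPS6* at -0.42, -0.35, -0.48 and -0.25. None of these 7 was called.

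The size of the cell line difference went with chromosome. All 12 members on chromosome 19 were called lower in THP1, with a median of -1.04, and they make up 12 of the 27 called. The 910 other tested genes of chromosome 19 had a median of -0.61, and 50.5% of them were called lower. On chromosome 1 the 5 members had a median of 0.06 and the 1244 other genes 0.49, of which 43.3% were called higher. On chromosome 6 the medians were -0.08 for 4 members and 0.44 for 579 other genes. Across the 21 chromosomes that hold members, the median of the members and that of the other genes had a Pearson r of 0.62, a description of 2 cell lines. The copy number of the chromosomes in these cell lines was not measured here.

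The members lay below the other genes of their own chromosome as well. For 71 of 76 the log2 fold change was under the median of the other genes there, by a median of 0.42 (log2 difference -0.42). Off chromosome 19 the members had a median of -0.36, and the 13131 other tested genes had a median of 0.04. Of the 64 members there, 15 were called lower, beside 17.2% of all genes with chromosome 19 included. These were *RPL26*, *RPL10*, *RPS29*, *RPL3*, *RPL35A*, *RPL13*, *RPL37A*, *RPL9*, *RPL12*, *RPL17*, *RPL19*, *RPL39*, *RPL7*, *RPL7A* and *RPL4*. *RPL3*, which forms part of the core around the catalytic centre, was at -0.89 and *RPS29* at -0.92.

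The neighbours of *RPL26* moved with it. Of 30 other genes that average 5 TPM or more within 1000000 bases on either side, 29 lay below 0 and 23 were called lower in THP1, with a median of -1.16. For *RPL13A* 35 of 38 neighbours lay below 0 with a median of -0.54, and for *RPS19* 19 of 22 with -0.65. *RPL10* was unlike these, since its 35 neighbours had a median of 0.00 and 3 were called lower. Around *RPS10* and *RPL5* the neighbours had medians of 0.67 and 0.50, higher than the members themselves.

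**Figure D5:**
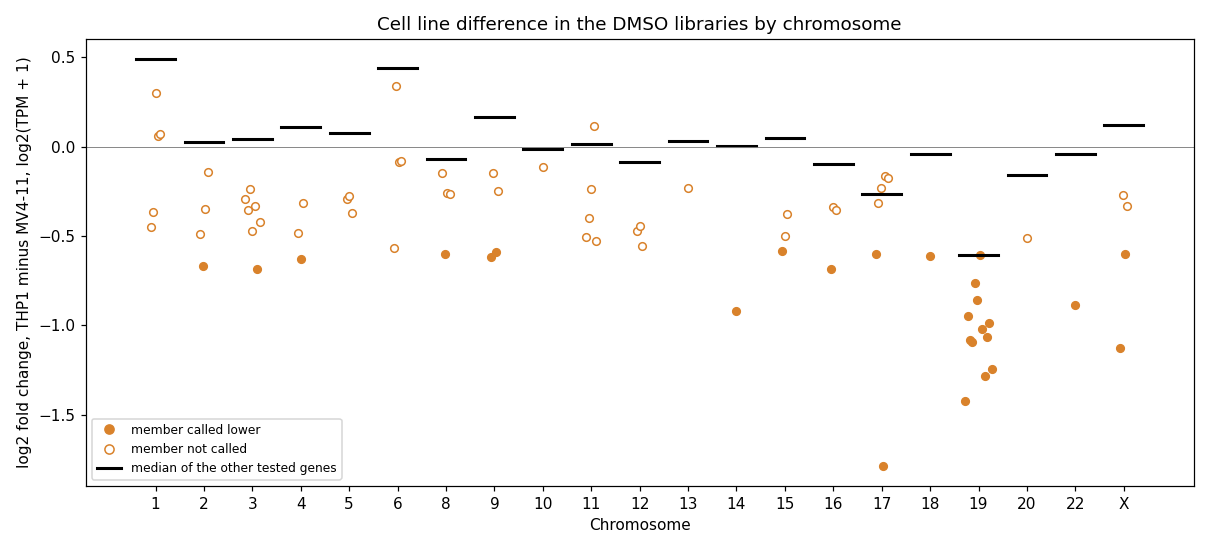
log2 fold change of THP1 against MV4-11 in the DMSO libraries for each ribosomal protein gene, by chromosome, filled where called lower, with the median of the other tested genes of that chromosome as a black bar. The 12 members on chromosome 19 are all called, and on most chromosomes the members lie below the bar.

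Genes outside the name rule were examined from lists written for ribosome biology. *RPL22L1*, a paralog of *RPL22*, was 50.4 ± 0.869 TPM (SD, n = 3) in MV4-11 and 13.3 ± 3.29 TPM (SD, n = 3) in THP1 with DMSO and was called lower (-1.87, limma adjusted p = 6.05e-09). *RPS27L*, a paralog of *RPS27*, was 24.3 ± 1.89 TPM (SD, n = 3) and 8.01 ± 1.95 TPM (SD, n = 3) and was called lower too (-1.51, adjusted p = 3.52e-06). *RPL39L* went the other way, 20.6 against 31.5 TPM (0.58, SE 0.18), just under the fold threshold. *RPL26L1*, *RPL36AL* and *RPL7L1* were not called, and *RPL3L* and *RPL10L* were listed at 0 in most libraries. *FAU*, made as a fusion of RPS30 with a ubiquitin-like protein, was at -0.10. None of these 7 tested genes was called with IACS in either cell line.

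The 20 translation factors and related genes known to have TOP tracts all lay below 0 in THP1 against MV4-11 with a median of -0.44. Of these, *EEF2* (-1.38), which moves the ribosome along the mRNA, and *RACK1* (-0.65), a small subunit protein, were called lower. That is 2 of the 20, beside 17.2% of all genes called lower. After 24 h of IACS the medians of the 20 were 0.15 in MV4-11 (0.11 without replicate 3) and 0.04 in THP1, with 0 called.

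Genes that assemble ribosomes had medians below 0 after 24 h of IACS, where the median of all genes was 0.08 in MV4-11 and -0.12 in THP1. The 12 genes of pre-rRNA modification had a median of -0.22 in MV4-11 and -0.46 in THP1, all 12 below 0 in both cell lines. The 20 large subunit assembly factors had -0.17 and -0.34, the small subunit assembly factors -0.18 (20 tested) and -0.32 (19 tested), and the 7 chaperones of single ribosomal proteins -0.10 and -0.25. No gene of these lists was called as deposited at any timepoint with every library. With the replicate block in THP1 at 24 h, where 1.73% of all genes were called lower, 6 were called lower, *NCL* (-0.73), *NHP2* (-0.62) and *GAR1* (-0.75) of pre-rRNA modification, *RRS1* (-0.66) and *EBNA1BP2* (-0.65) of large subunit assembly and *PNO1* (-0.68) of small subunit assembly. With the block and median-of-ratios scaling together *GAR1* alone of these 6 was called (-0.62), and the others were at -0.57 to -0.47, under the fold threshold. With that scaling and no block the THP1 medians of the 4 lists were -0.31, -0.19, -0.19 and -0.10. Without MV4-11 IACS 24 h replicate 3 the MV4-11 medians were -0.29, -0.23, -0.23 and -0.20, and *NHP2* was called lower there (-0.62, limma adjusted p = 0.0466), beside 0.753% of all genes called. At 8 h in THP1, where the median of all genes was -0.12, the lists were at -0.18, -0.12, -0.16 and -0.05, and with scaling at -0.04, 0.01, -0.03 and 0.09. The 12 genes of RNA polymerase I transcription had medians of 0.01 in MV4-11 and -0.17 in THP1 after 24 h of IACS.

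Between the cell lines with DMSO, 17.2% of all genes were called lower in THP1 and 19.7% higher. The median was -0.302 for pre-rRNA modification (0 of 12 above 0) and -0.487 for the chaperones (1 of 7), beside 0.006 for all genes. It was -0.185 for large subunit assembly (6 of 20 above 0) and -0.331 for small subunit assembly (5 of 20). RNA polymerase I transcription had -0.216 (5 of 12 above 0), and the regulators of ribosomal protein synthesis had 0.059 (7 of 12). Calls in these lists went both ways. *FBL* (-1.66) and *NOP56* (-1.38), of the box C/D snoRNP that methylates rRNA, were called lower in THP1, as were *NOP2* (-1.51), *TSR1* (-1.39), *RIOK1* (-1.12) and *PWP2* (-1.10), while *RRP15* (1.11), *NVL* (0.80) and *MDN1* (0.61) were called higher. *RRP1* (-0.82) of large subunit assembly, *POLR1B* (-0.76) of RNA polymerase I and the chaperones *PDCD2L* (-1.02), *GRWD1* (-0.83) and *AAMP* (-0.74) were called lower, and *TAF1A* (1.18) higher. Among 12 regulators of ribosomal protein synthesis *MYC* (-1.37) and *EIF4EBP1* (-0.90), the latter a translation repressor under mTOR, were called lower in THP1 and 0 were called higher. With IACS 0 of the 12 were called.

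The 78 mitochondrial ribosomal protein genes, which build the separate ribosome inside mitochondria, had medians of -0.13 in MV4-11 (-0.23 without replicate 3) and -0.26 in THP1 at 24 h, with 15 and 2 of 78 above 0, and 0 were called. With the block 2 of them, *MRPL12* and *MRPL4*, were called lower in THP1 at 24 h, beside 1.73% of all genes. Between the cell lines with DMSO 12 of 78 were called lower in THP1, beside 17.2% of all genes, and 2 higher, beside 19.7%. The median was -0.22.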

How the data were processed

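RNA was sequenced in 18 libraries of 2 AML cell lines. Per the labels and the study's methods, the authors made TruSeq RNA libraries, sequenced paired-end reads, trimmed them, aligned them to GRCh38 and deposited TPM per gene symbol, made in CLC Genomics Workbench v20. Its gene annotation and use of strand are not given in the sources used here. TPM of a library have a fixed sum, so depth is lost. It was estimated from low values with exon lengths of GENCODE release 44 (28197 matched symbols), which also gave coordinates. The study's methods call the 3 replicates of a group independent, without saying how the cultures were kept apart, and p-values measure the spread between these libraries.

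log2(TPM + 1) was fitted with limma 3.58.1 (R 4.3.3, variance trend) over all genes that average 1 TPM or more, 9 libraries for comparisons within a cell line and 18 for those between cell lines. Calls were made at a two-sided p under 0.05, adjusted by Benjamini and Hochberg over all genes tested, with a change beyond 1.5-fold (log2 scale). The scripts were tested on simulated data. Replicate numbers were taken to pair libraries where all 3 correlations of same-numbered deviations passed 0.1, which held for THP1 24 h against DMSO and for 24 h against 8 h in both cell lines. RefSeq promoter windows were read for GRCh38.p14.

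The members and lists were chosen with earlier results of these data known. Genes named were the 5 highest and lowest members, the called members and 3 at each end of a comparison, members with set roles, called genes and ends of each list, and the paralogs. The genes named by within-group spread and the neighbours were chosen after their values were seen. Alternatives were the pseudocount, filters, scalings, the block, no trend, thresholds, Kruskal-Wallis tests and leaving out libraries. The line comparison in the IACS libraries and the values without replicate 3 of the MV4-11 IACS groups were added after seeing the data. 0 columns were left out. Some items that the naming rule covers are not reported here.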

Additional observations from a re-analysis of the deposited data

How the results depend on the processing

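The number of members called in THP1 at 24 h was 0 as reported, 3 with the replicate block, 1 with the block and median-of-ratios scaling, 3 at an unadjusted p with the fold threshold, and 0 to 1 when 1 library was left out (1 without THP1 IACS 24 h replicate 2). For THP1 24 h against 8 h it was 0 as reported, 1 under each of those 3 settings, and 0 to 1 with a library left out, again by that library. Between the cell lines with DMSO, 27 were called, and 46 at an adjusted p alone. For the cell line difference in the 24 h response it was 0, and 3 at an unadjusted p with the fold threshold. The replicate block changed no other count of calls by over 1.5 times. The members' median changed sign in MV4-11 at 8 h (0.10, and -0.02 without IACS 8 h replicate 3) and in THP1 at 24 h (0.03, and -0.02 without DMSO replicate 3). In THP1 at 8 h it was -0.01 as reported, -0.07 to 0.06 with a library left out, 0.14 with median-of-ratios scaling and 0.11 without the 5 noncoding RNAs. Members named for the size of a log2 fold change did not all keep its sign. *RPL38* had the highest of the members in MV4-11 at 8 h, 0.29. Its IACS 8 h libraries other than replicate 3 lay below all of its DMSO libraries. Members named for a role did not all keep their sign either. With median-of-ratios scaling *RPS6* was -0.03 and *RPL41* -0.01 in MV4-11 at 24 h. In THP1 at 24 h that scaling put *RPS27A* at 0.06 and *RPLP2* at 0.05. Without MV4-11 IACS 24 h replicate 3, *RPLP2* was -0.02 and *RPS27A* 0.03 in MV4-11. The cause of these moves was not tested, except that looser thresholds call more genes by construction. Among the members whose own change was followed, *RPS16*, *RPS26* and *RPLP1* gained calls in THP1 at 24 h under the settings above, and *RPS16* lost its call between the cell lines under 5. Without the 5 noncoding RNAs the members' share in the 6 groups was 7.78% to 10.9%. Adding the TPM of processed pseudogenes to their parent genes was not run, since such rows were not analysed here.

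Depth could be estimated only in part, and with 3 libraries a group small changes were not detectable. The 95% interval of *RPS16* in THP1 at 24 h ran from -1.75 to -0.59 (log2). Reads of near-identical copies are uncertain for every member. The duration of the DMSO treatment is not given, so treatment and time in culture cannot be told apart.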
